A study of Mus musculus with 6 samples.

Results

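RNA polymerase II (Pol II) occupancy was described in wild-type (WT) mouse neural precursor cells (NPCs), taking every library with the WT label, 3 of the 6 in the series. The other 3, from Armc5(-/-) cells, took no part in any comparison here. The assay was ChIP-seq (sequencing of immunoprecipitated chromatin), and the antibody bound the amino-terminal domain (NTD) of the largest subunit, RPB1, the product of Polr2a. The cells were labelled as of the strain 129 sv X CD1 and as neural stem cells, while the paper describes its mice as a CD1 x C57BL/6 cross. By the paper's methods the cells came from the ganglionic eminences, the ventral wall of the embryonic forebrain, of e13.5 fetuses. Its results name brains and spinal cords of that age as the source instead. The cells were grown as neurospheres, floating clusters of dividing cells, in medium with epidermal growth factor to the second passage. Neurospheres hold stem cells and their progeny together, so each value is an average over these cells, and fewer cells of a type and less Pol II per cell cannot be told apart. Reads had been counted in 3 windows of each of 12107 genes, which gives 36321 gene regions. The promoter window ran from 400 bases before to 100 bases after the annotated start (TSS), the gene body from there to 100 bases before the annotated end (TES), and the TES region from that point to 2000 bases beyond the TES.

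Pol II starts transcription at the promoter, and at many animal genes it pauses a short way into the gene until elongation factors release it, so that ChIP signal gathers near the start. Released polymerase crosses the gene body quickly and leaves little signal per base, and it often slows again behind the polyadenylation site before it leaves the DNA. The bound domain is outside the phosphorylated tail of the enzyme, so initiating, paused and elongating polymerases are counted alike.

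Levels are given as CPM (reads scaled to 1e6 reads of the library over the 3 windows) or, to compare windows and genes of different length, as CPM per kb of window. The 3 libraries held 18863084, 23808344 and 14528870 reads in replicates 1, 2 and 3. Gene bodies, by far the longest windows, took 81.1, 82.1 and 88.1% of them, promoters 10.9, 11.2 and 6.04% and TES regions 7.94, 6.74 and 5.83%. Reads spread evenly over all windows would give 1.34 CPM per kb. Library 3 had the lowest promoter share and the flattest gene bodies, with a ratio of the 95th to the 5th percentile of body density of 3.83, against 16.4 in library 1 and 8.61 in library 2. No input library was analysed here, so levels near the even density cannot be told apart from background. No library repeated another (a chi-square of the counts gave 4.74 to 121 per degree of freedom), and the rank correlation between libraries across 12024 genes, which are not independent replicates, was from 0.797 to 0.931 within a window.

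Promoters held far more Pol II per base than gene bodies at most genes. The median promoter density was 14.2, 14.1 and 6.19 CPM per kb in libraries 1, 2 and 3, the median gene body density 1.44, 1.39 and 1.29, and the median TES density 1.82, 1.64 and 1.47. The promoter median of each library was thus above its other medians, and library 3 was at less than 50% of the other libraries for promoters only. The median gene had 6.76-fold more reads per base in its promoter than in its body, and the medians were 8.38, 8.63 and 4.36-fold by library. Of 12023 genes tested, 10710 (89.1%) were higher at the promoter and 165 (1.37%) lower by edgeR's quasi-likelihood test with Benjamini-Hochberg adjustment over the 3 comparisons of windows together, and 10566 and 159 of these had 1 sign in all 3 libraries. A ratio over 16-fold was found at 1637 genes. The smaller group depended on the libraries, with 80, 91 and 195 genes lower without libraries 1, 2 and 3. These p-values measure the spread among 3 cultures, and the labels do not say how many fetuses each came from.

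**Figure D1:**
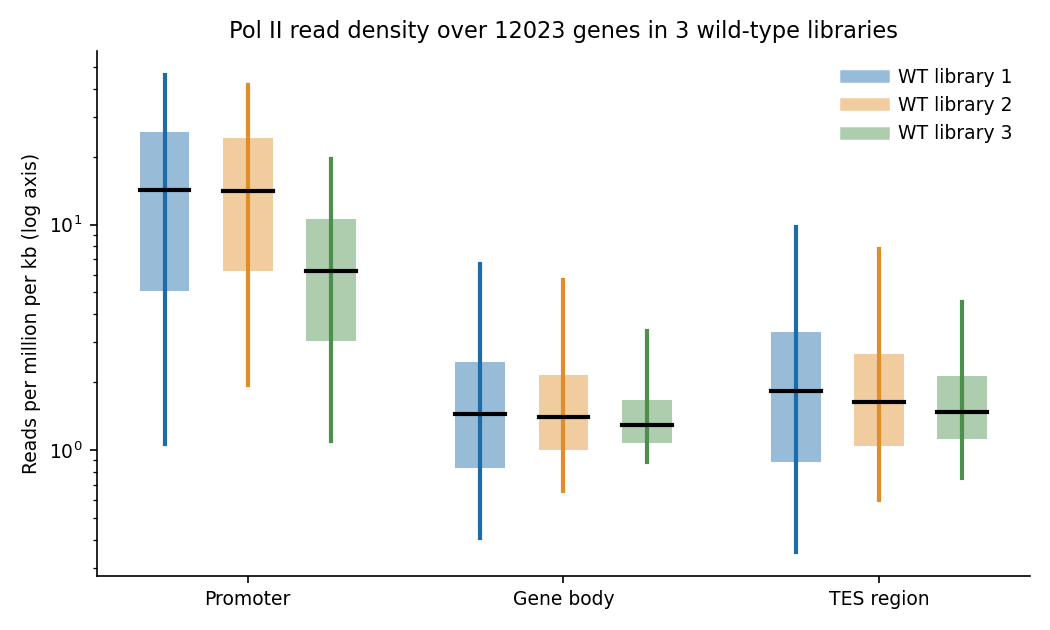
Pol II density (CPM per kb, log axis) of the promoter, gene body and TES region of 12023 genes in WT libraries 1, 2 and 3. Black marks are medians, bars the middle 50% of genes and thin lines the 5th to 95th percentile. The promoter medians of 14.2, 14.1 and 6.19 are above every body and TES median, and the gene body bar is narrowest in library 3.

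Behind the genes the density was close to that of the bodies. The median TES to body ratio was 1.15-fold (1.22, 1.14 and 1.14 in the 3 libraries). At the TES 2262 genes (18.8%) were higher than in the body and 1118 (9.3%) lower, while 8643 did not pass the test. Promoters exceeded the TES regions at 10439 genes (86.8%) and were lower at 251 (2.09%), with a median of 5.67-fold. Leaving out library 1, 2 or 3 gave 903, 1114 and 3715 genes higher and 603, 563 and 1646 lower at the TES than in the body, so that these counts rose without library 3, and gave 133, 190 and 298 promoters below the TES region. Scaling by TMM over all 9 columns (3 windows in 3 libraries), which equates the usual read number of windows of unequal length, moved the median log2 ratio from 2.80 to 5.55 for promoter to body and from 0.19 to 3.43 for TES to body. Ratios that change sign under it are named as such.

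The cell type was checked first. Sox2, a transcription factor of neural stem cells, had 85.8, 42.3 and 20.1 CPM per kb at its promoter in libraries 1, 2 and 3 and 21.7, 12.8 and 3.60 in its body. Both were over 4-fold higher in library 1 than in library 3, but in each library the promoter was above the body, by a log2 ratio of 2.06 ± 0.38, adjusted p = 1.8e-06 (mean ± SD of the 3 libraries here and below, edgeR's test as above). Nes, which encodes the intermediate filament nestin of neural progenitors, had 38.9, 16.9 and 15.8 at the promoter and 7.13, 4.49 and 5.20 in the body (log2 ratio 1.99 ± 0.42, adjusted p = 3.0e-06). Its library 1 value stood above those of libraries 2 and 3, which were close. Among the 12024 genes these bodies lay at the 99.3 and 95.5 percentile. Of 16 neural stem cell markers 14 were measured, their median body percentile was 97.8 and their median promoter percentile 78.9, and all 14 bodies were above the median of all genes. At the promoter 3 of the 14 were below the median of all genes. At the promoter 11 of the 14 were higher than in the body and 1 lower, beside 89.1% and 1.37% of all genes.

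The Notch target Hes5 had one of the densest bodies (31.8, 32.1 and 5.29 CPM per kb, rank 23) and a promoter at 62.6, 49.7 and 28.6. The radial glia genes Sox9 and Fabp7 (a fatty acid binding protein) had bodies at 14.0, 7.30 and 1.73 and at 36.4, 11.4 and 5.19, in both cases highest in library 1 and lowest in library 3. Vim, a filament gene of radial glia, had 25.9, 25.4 and 14.9 at the promoter against 19.6, 8.01 and 5.06 in the body. The epidermal growth factor receptor Egfr, the receptor for the factor in the medium, carried 40.2, 16.5 and 6.47 at its promoter and 5.75, 1.87 and 2.47 in its body, and its TES region was above the body (log2 ratio 1.00 ± 0.15, adjusted p = 0.033, or 0.16 and 0.20 without libraries 1 and 2). Slc1a3, a glial glutamate transporter, was not called between promoter and body (0.39 ± 0.24) and higher at the TES (1.13 ± 0.07, adjusted p = 0.0052, or 0.084 and 0.078 without libraries 1 and 2). Pax6 was the exception in the list, since its promoter window at 0.636, 2.27 and 0.964 lay below its body at 2.47, 3.36 and 2.09 (-1.13 ± 0.66, adjusted p = 0.016, or 0.28 without library 1 and 0.069 without the replicate block). Its annotation holds a second start over 600 bases inside the gene, and under TMM over all 9 columns the ratio turned positive.

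Genes of the dorsal pallium and most neuronal markers carried little Pol II at the promoter. At the promoter of Emx1, a dorsal transcription factor gene, the 3 libraries had 0.106, 2.02 and 0.826 CPM per kb, and at that of Eomes, a gene of dorsal intermediate progenitors, 1.17, 1.60 and 2.20. All 9 measured dorsal genes had promoters below the median of all genes (median percentile 7.96), but their bodies, at a median percentile of 46.5 with 5 of 9 below the median, were close to all genes. Dcx, which encodes doublecortin of young neurons, had 0.318, 0.924 and 0.826 at the promoter and 0.436, 0.672 and 0.991 in the body, with promoter rank 12015 of 12024, and was not called (0.05 ± 0.41, adjusted p = 0.98). Under TMM over all 9 columns the Dcx promoter was called higher. Of 12 neuronal markers 10 were below the median at the promoter and 9 in the body. Even so, 10 of the 12 (83.3%) were called higher at the promoter than in the body and none lower. All genes had 89.1% and 1.37%. A pair of those called had Pol II at the promoter over a body near or below the even density. Elavl3, an RNA-binding protein gene, had 19.9, 34.9 and 11.0 at the promoter against 1.05, 1.75 and 1.17 in the body (3.94 ± 0.60, adjusted p = 3.3e-10), and Nefm, a neurofilament gene, 13.4, 12.9 and 5.78 at the promoter against 0.507, 0.919 and 0.895 in the body (3.75 ± 1.01, adjusted p = 3.8e-09). Klf4, the 1 pluripotency gene of the list of 6 that was measured, had the same form with 30.9, 35.9 and 13.5 at the promoter against 1.19, 1.60 and 0.658 in the body (4.51 ± 0.17, adjusted p = 1.3e-10).

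The ganglionic eminence factors were uneven. Olig2 and Olig1, made by progenitors that give rise to oligodendrocytes and interneurons, had the densest bodies of the list. Olig2 had 66.9, 12.4 and 13.3 and Olig1 50.0, 8.18 and 11.2, with library 1 far above the others in both. Neither Olig2 promoter (65.8, 28.3 and 25.3) nor TES region (66.1, 10.7 and 10.4) differed from its body by the test (0.70 ± 0.64 and -0.19 ± 0.17), although in libraries 2 and 3 the promoter held over 1.5 times the body density. The TES to body ratio of Olig2 turned positive under TMM over all 9 columns. Dlx2, an interneuron factor, was at 4.24, 8.06 and 4.82 at the promoter, Gsx2 at 0.636, 7.31 and 1.24 and Lhx6 at 0.106, 1.93 and 1.79, and 8 of 11 measured factors had promoters below the median. The astrocyte and oligodendrocyte lists (11 and 7 genes measured) had bodies at a median percentile of 86.3 and 87.6, but promoters at 25.4 and 24.4, with 10 of 11 and 4 of 7 below the median. In the first stood Id3, an inhibitor of differentiation, with 33.9, 21.9 and 12.2 in the body and only 5.09, 7.22 and 2.62 at the promoter (-2.17 ± 0.56, adjusted p = 3.5e-06, positive under TMM over all 9 columns). In the second stood Sox10, an oligodendrocyte factor, with 14.2, 8.48 and 5.24 in the TES region against 4.08, 3.46 and 1.80 in the body (1.55 ± 0.25, adjusted p = 5.8e-05). Other lineages were hardly represented in the table. Only Cd68 of 12 microglia and blood genes, Kdr of 11 vessel genes and Prrx1 of 8 mesenchymal genes were measured, and Cd68, at 18.9, 5.69 and 4.43 in the body, was dense, while Kdr (0.424, 0.667 and 0.847) and Prrx1 (0.551, 0.969 and 0.941) were below the even density. The other markers of these lists were not measured here, and a part of such cells in these values was not tested.

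**Figure D2:**
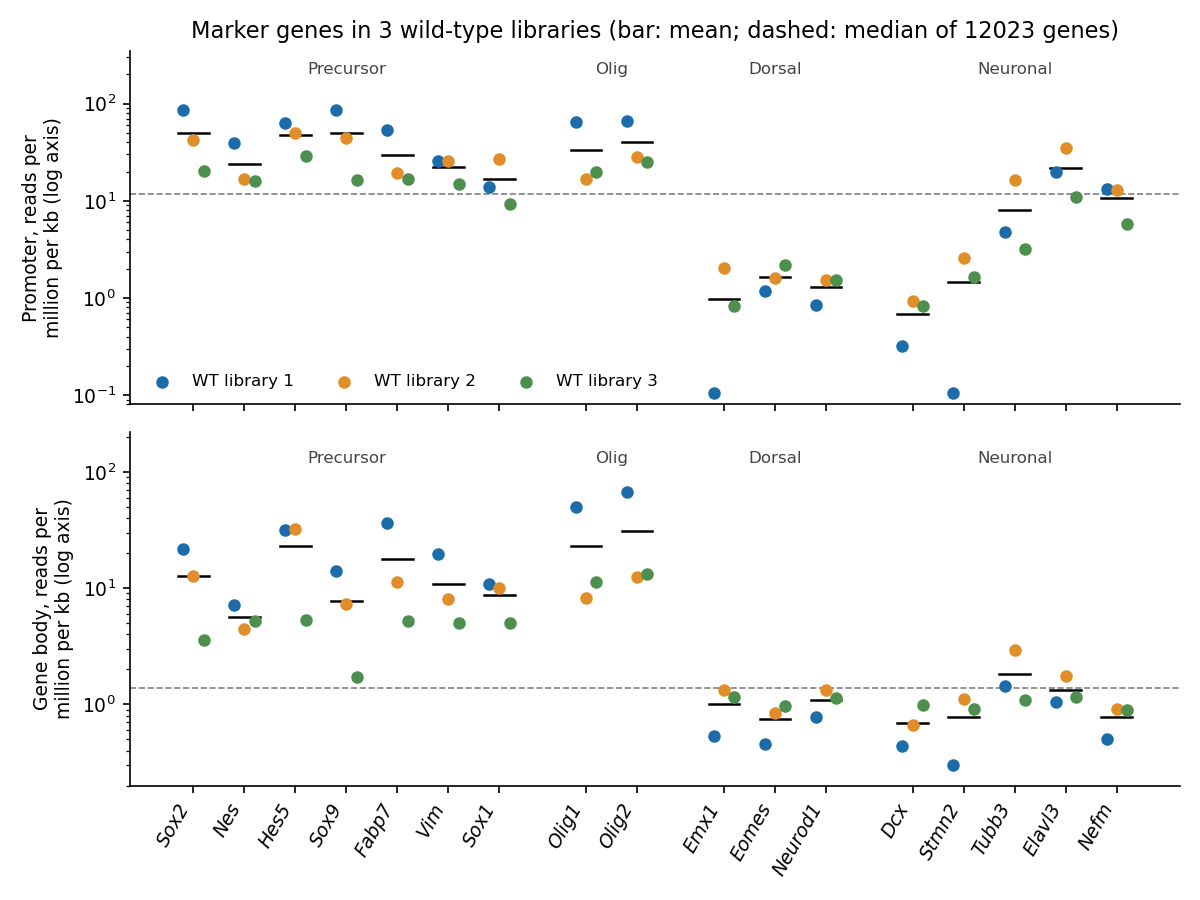
Pol II density (CPM per kb, log axis) of marker genes at the promoter (top) and in the gene body (bottom), 1 dot per WT library, with a bar at the mean and a dashed line at the median of 12023 genes. The precursor genes drawn are a part of the 14 measured, 3 of which had promoters below the median of all genes. The means of the precursor and Olig genes drawn lie above the line in both panels, those of Emx1, Eomes, Neurod1, Dcx and Stmn2 below it, and Elavl3 is above it at the promoter and close to it in the body. Dots of Emx1 and Stmn2 in library 1 at the lower edge of the top panel stand for 1 read each.

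The strongest promoters outside the satellite-like gene models described further down belonged to housekeeping and regulatory genes. Polr2a, the gene of the precipitated subunit itself, was among them with 149, 90.1 and 63.6 CPM per kb in libraries 1, 2 and 3, rank 5 of 12024. Its body held 4.98, 3.87 and 2.99, and the log2 ratio was 4.62 ± 0.26, adjusted p = 1.5e-10. Jund, an AP-1 transcription factor, had 119, 103 and 49.3 at the promoter and, unlike Polr2a, also one of the densest bodies at 23.5, 32.5 and 13.8. Each of these promoters was lowest in library 3. The same order held for Insig1, a sterol sensor (115, 89.8 and 49.1), Poldip3 (105, 72.2 and 68.6), Znfx1 (131, 104 and 49.7) and Taf4, a subunit of the TFIID initiation complex (105, 78.5 and 34.7), but Ppp1r12a, a myosin phosphatase subunit, was highest in library 2 (88.6, 104 and 51.8). The highest of all, H2-DMa (159, 117 and 54.1), has a window that also covers the start of the chromatin reader gene Brd2, and reads there cannot be assigned to either.

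Promoter sequence is shown for genes at both ends of this range and for 1 pair of genes with a shared promoter. Each line gives the 150 bases before the annotated start (GRCm38, 5′ to 3′ on the gene's strand), and capitals mark matches, on either strand where not stated otherwise, to the GC box GGGCGG, the CCAAT box, the ETS motif CCGGAAG, the CRE motif TGACGTCA and, on the gene's strand from 40 to 20 bases before the start only, TATAAA.
Polr2a: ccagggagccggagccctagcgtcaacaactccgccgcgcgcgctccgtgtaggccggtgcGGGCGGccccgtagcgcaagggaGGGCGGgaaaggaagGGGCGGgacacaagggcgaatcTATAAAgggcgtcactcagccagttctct
Jund: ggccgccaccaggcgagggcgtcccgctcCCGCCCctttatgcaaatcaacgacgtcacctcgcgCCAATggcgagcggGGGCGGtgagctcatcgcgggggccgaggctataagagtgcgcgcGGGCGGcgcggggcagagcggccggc
Sox2: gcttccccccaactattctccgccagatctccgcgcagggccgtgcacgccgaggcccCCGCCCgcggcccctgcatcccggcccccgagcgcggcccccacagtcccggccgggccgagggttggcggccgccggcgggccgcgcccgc
Hes5: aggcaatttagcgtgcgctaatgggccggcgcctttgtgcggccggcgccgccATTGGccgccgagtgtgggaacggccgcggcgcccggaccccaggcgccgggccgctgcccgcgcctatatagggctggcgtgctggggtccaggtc
Dcx: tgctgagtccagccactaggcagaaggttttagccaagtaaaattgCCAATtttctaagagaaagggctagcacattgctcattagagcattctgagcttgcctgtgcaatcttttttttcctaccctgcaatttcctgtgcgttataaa
Ttc39d and Srsf7: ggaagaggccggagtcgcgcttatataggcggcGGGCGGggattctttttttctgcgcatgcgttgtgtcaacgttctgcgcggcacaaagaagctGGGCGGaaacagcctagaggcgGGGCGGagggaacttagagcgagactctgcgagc
These lie at chr11:69758638-69758787 (minus strand), chr8:70698799-70698948 (plus), chr3:34650255-34650404 (plus), chr4:154960773-154960922 (plus), chrX:143933312-143933461 (minus) and, for the 152 bases between the starts of Ttc39d and Srsf7, chr17:80207308-80207459 (plus, the strand of Ttc39d). Polr2a holds 3 GC boxes and a TATAAA, Jund 3 GC boxes and a CCAAT box. The promoters dense with Pol II, the shared promoter of Ttc39d and Srsf7 among them, hold from 16 to 23 CpG dinucleotides. That of Dcx, at 42.0% G or C, holds 1.

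The largest promoter to body ratios were often at such shared starts. Ttc39d, a gene of the tetratricopeptide repeat family, had the highest ratio of the genes named by the rule, 6.51 ± 0.56, adjusted p = 2.3e-11 on the log2 scale. Its promoter was at 125, 107 and 64.0 and its body at 0.959, 1.10 and 1.06, below the even density, whereas Srsf7, the splicing factor gene that starts on the other strand beyond the 152 bases printed, had 112, 75.8 and 47.6 at its promoter and 5.29, 5.76 and 4.35 in its body. The promoter windows of both genes cover both starts. Of the next 9 genes in order, Taf4, Ccdc171, Pdss2 and Arl15 had no such partner, and 3110009E18Rik, Ccdc148, Fam227b, Srp54a and Shld2 faced Dbi, Pkp4, Dtwd1, 2700097O09Rik and Glud1. At Taf4 the promoter was at 105, 78.5 and 34.7 and the body at 1.08, 1.04 and 1.23 (5.89 ± 0.94, adjusted p = 9.9e-11), and Pdss2, which makes the side chain of coenzyme Q, had 63.4, 51.3 and 26.7 at the promoter against 0.631, 0.841 and 1.01 in the body (5.77 ± 0.97, adjusted p = 1.4e-10). Both bodies lay below the even density in each library. Over all genes, a protein-coding start on the other strand within 1000 bases upstream was annotated for 12.2% of those tested, 13.3% of those higher at the promoter and 2.42% of those lower, and the median promoter density was 18.0 CPM per kb with and 10.6 without one.

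**Figure D3:**
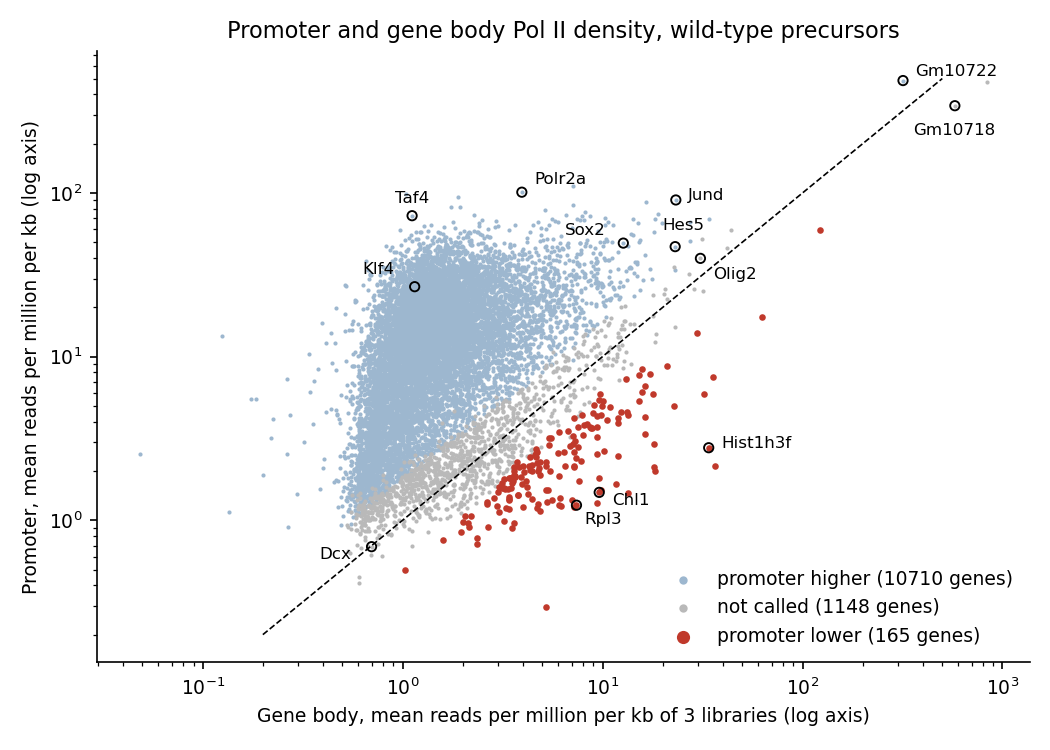
Promoter against gene body density (CPM per kb, mean of 3 WT libraries, log axes) of 12023 genes, 1 dot each, blue where the promoter was higher, red where it was lower and grey where edgeR's test made no call. The dashed line marks equal density. Most genes lie above it, Taf4, Klf4 and Polr2a far above, Sox2, Hes5 and Jund are high on both axes, Hist1h3f, Chl1 and Rpl3 lie below the line and Dcx is low on both.

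Genes with less Pol II at the promoter than in the body were few and mostly short. Of the 165, 111 were in the shortest of 5 length groups of equal size (1013 to 8186 bases), and 44.8% had another annotated start over 600 bases inside the gene, against 23.1% of all. Hist1h3f, a histone H3 gene, had 1.80, 2.94 and 3.58 at the promoter and 34.3, 42.8 and 24.7 in the body (-3.61 ± 0.75, adjusted p = 1.5e-09). Its promoter window was thus poor in each library beside one of the densest bodies. Sft2d3, a vesicle transport gene, had 3.29, 1.09 and 1.65 at the promoter against 24.2, 21.0 and 9.59 in the body (-3.18 ± 0.91, adjusted p = 2.0e-08). Fjx1 had 1.17, 1.76 and 2.06 at the promoter against 17.2, 10.7 and 7.27 in the body (-2.72 ± 1.03, adjusted p = 5.3e-07), and Gadd45gip1, a mitochondrial ribosome protein gene, 1.59, 0.840 and 1.38 at the promoter against 12.2, 9.72 and 6.13 in the body (-2.81 ± 0.69, adjusted p = 1.3e-07). None of these had a second start by the annotation, but which start the authors used is not stated in the sources used here. Gapdh, often used as a reference gene, was lower too, at 3.50, 6.38 and 3.30 against 14.9, 17.8 and 7.54 (-1.57 ± 0.46, adjusted p = 1.3e-04), with a second start inside the gene, and turned higher under TMM over all 9 columns. Chl1, a long cell adhesion gene, was the odd member, with 1.48, 2.27 and 0.688 at the promoter and 6.07, 7.77 and 15.0 in the body, where library 3 was highest (-2.68 ± 1.42, adjusted p = 2.4e-04). Its ratio turned positive under that scaling too, without a call. In the 6953 genes with 1 start and no protein-coding neighbour over the promoter window, a subset chosen after the data were seen, 6340 were higher and 57 lower.

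By CPM, which favours long genes, the fullest gene bodies after Gm10800 were Gm20388 and Fgfr2, whose annotated spans of 4434882 and 2960900 bases run over other genes, then Chl1, Lsamp, Npas3, Ptprd, Macrod2 and Qk. Chl1 took 1453, 1861 and 3596 CPM in libraries 1, 2 and 3, Npas3, a neural transcription factor gene, 2702, 1386 and 1580, and Qk, an RNA-binding protein gene of glia, 2363, 739.6 and 689. The libraries ranked differently among these, with library 3 highest at Chl1 and library 1 highest at Npas3 and Qk. Per kb, the bodies of Lsamp (0.719, 0.832 and 1.06), Ptprd (0.414, 0.676 and 0.877) and Macrod2 (0.433, 0.690 and 0.918) were below the even density in each library, so that their place in the order came from their length of 2197319, 2270724 and 1997658 bases, while Qk (20.2, 6.32 and 5.89) and Chl1 (6.07, 7.77 and 15.0) were dense.

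Per kb the densest bodies, satellite-like models aside, were those of short genes. The linker histone genes Hist1h1e (36.8, 52.3 and 41.9) and Hist1h1c (30.5, 51.2 and 43.9) led, and both were highest in library 2. Tmsb10, which encodes an actin-binding thymosin, had 46.3, 39.0 and 21.6, Actb (beta-actin) 44.0, 36.4 and 22.1, Rpl41 51.0, 25.3 and 19.6, Atf4, a stress-response transcription factor, 45.7, 30.9 and 19.0, and Ubb (ubiquitin) 38.8, 30.6 and 16.2. Each of these 5 was highest in library 1 and lowest in library 3. Egr1, an immediate early transcription factor, went the other way at 20.8, 30.2 and 37.6. The difference between promoter and body did not pass the test at Hist1h1e (0.45 ± 0.49), Hist1h1c (0.16 ± 0.29), Atf4 (-0.34 ± 0.25) and Ubb (-0.17 ± 0.16), the last pair positive under TMM over all 9 columns, and at Actb the promoter, 102, 65.4 and 41.3, was called higher (0.99 ± 0.20, adjusted p = 0.012, or 0.20 and 0.085 without libraries 1 and 2). Promoter and body density ranked genes differently, with a rank correlation across genes of 0.447, 0.320 and 0.409 in libraries 1, 2 and 3, against 0.733, 0.625 and 0.571 between body and TES region. The windows of a gene share a library and adjoin, so these are descriptions only.

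Sorting genes by both windows gave groups of different make-up. In the highest 10% of both promoter and body were 260 genes, with 30 ribosomal protein genes, 15 immediate early genes, 12 SR and hnRNP genes, and stem cell genes such as Sox2, Sox9, Fabp7 and Hes5. A promoter in the highest 10% over a body in the lower 50% was found for 292 genes, which were long (median 59332 bases), had a divergent partner in 29.5% and held no gene of those lists. A body in the highest 10% behind a promoter window in the lower 50% was found for 438 genes with a median length of 5052 bases, of which 34.0% had a second start inside. Among these were 19 ribosomal protein genes and Hes1, a Notch target, at 11.3, 9.16 and 8.12 at the promoter and 14.8, 7.91 and 6.66 in the body. Both windows in the lowest 10% were found for 474 genes, Dcx and 7 potassium channel genes among them.

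Body density went with gene length more than promoter density did. From the shortest to the longest of the 5 length groups the median body density fell from 2.77 to 0.954 CPM per kb, while promoter density stayed between 9.45 and 13.3. The median promoter to body ratio was 3.49-fold in the shortest group, 9.73-fold in the group of 33448 to 74300 bases and 8.90-fold in the longest. The TES region had 0.782 times the body density at the shortest genes and 1.28 times at the longest.

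At the TES, many of the highest values lay over another gene. Senp3, a SUMO protease gene, had 50.5, 31.5 and 19.3 CPM per kb in its TES window in libraries 1, 2 and 3 and 3.15, 2.86 and 2.20 in its body, but the window covers part of Eif4a1, a translation factor gene. Likewise Snx32 (38.1, 27.8 and 21.5) is followed by Cfl1 and Bax (41.7, 28.9 and 12.7) by Ftl1. Of all genes 33.0% had another protein-coding gene over this window, of those higher at the TES than in the body 52.1%, and of those lower 42.6%. Tex2 and Prss12, a lipid transfer protein gene and a protease gene, were high with no protein-coding gene annotated there. Tex2 had 55.5, 27.8 and 16.8 in the TES region against 1.26, 1.18 and 1.29 in the body (4.58 ± 0.88, adjusted p = 1.2e-09) and Prss12 44.5, 24.8 and 14.0 in the TES region against 0.996, 0.794 and 1.03 in the body (4.73 ± 0.88, adjusted p = 2.8e-10). Noncoding genes were not looked at. Inka2, an inhibitor of a cell motility kinase, had 57.9, 12.7 and 24.4 in the TES region against 28.6, 6.95 and 8.97 in the body (1.11 ± 0.30, adjusted p = 0.0069, or 0.078 and 0.057 without libraries 1 and 2), and at Ckb (brain creatine kinase) the TES region at 58.9, 23.6 and 9.34 was not called different from the body at 48.0, 24.8 and 9.41 (0.07 ± 0.20).

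The largest ratios of TES region to body were at Col23a1 (4.99 ± 1.18, adjusted p = 1.2e-09), Prss12, Tex2, Dhdds (4.28 ± 0.35, adjusted p = 5.1e-10) and Dock3 (4.19 ± 0.58, adjusted p = 1.5e-09), and the windows of Col23a1, Dhdds and Dock3 lie over Phykpl, Hmgn2 and Manf. At the low end, 9030025P20Rik, Dclre1a, Gm10778 and Srp54a had 0 reads in the TES window in every library, which allows up to 3 reads each by counting error alone, and Ptprj had 0, 0 and 1.00 reads. Body densities beside them were 1.20, 1.06 and 1.15 CPM per kb at Dclre1a, a DNA repair gene, and 1.24, 1.10 and 1.25 at Ptprj, a phosphatase gene. No fold is given for these, and whether reads could be aligned to the windows was not tested. Among genes with reads, Hist1h1e had 1.36, 3.00 and 1.64 in a TES region that reaches Hist1h2be (-4.51 ± 0.34, adjusted p = 2.4e-10) and Hist4h4 0.480, 1.46 and 1.08 (-4.02 ± 1.20, adjusted p = 1.2e-08), so that Pol II was dense over these histone genes and near the even density behind them.

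Gene families were ranked by the median percentile of their members, where all genes have 50. Counts of called members stand beside the shares of all genes, 89.1% higher and 1.37% lower at the promoter and 18.8% higher and 9.3% lower at the TES than in the body. Histone genes came first, with a median of 96.7 at the promoter and 98.9 in the body over the 16 tested of 36 measured, since most are under 1000 bases long. Pol II was lower behind the gene than over it in 14 of the 16, against 9.3% of all genes, with a median log2 ratio of -2.47 where all genes had 0.21. Their mRNAs end in a stem-loop and carry no poly(A) tail. At Hist4h4 the promoter had 133, 94.4 and 37.3 and the body 19.1, 22.0 and 8.09 (2.37 ± 0.37, adjusted p = 4.0e-06), and at Hist2h2be, which shares its promoter with Hist2h2ac, there were 43.4, 54.4 and 33.7 at the promoter against 2.39, 4.08 and 2.25 in the body. Near-identical copies within the family can share reads, so values of single histone genes are uncertain.

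Splicing factors of the SR and hnRNP families followed for promoters, at 94.6 for promoters and 95.8 for bodies, with 26 of 29 (89.7%, near the 89.1% of all) higher at the promoter and 2 lower. Srsf3 had 90.3, 82.1 and 47.5 at the promoter and 9.04, 6.06 and 4.61 in the body (3.48 ± 0.24, adjusted p = 1.7e-09), and its TES region at 17.2, 12.7 and 11.1 was above the body as well (1.09 ± 0.17, adjusted p = 0.0040, or 0.057 and 0.057 without libraries 1 and 2). Hnrnpa2b1 was alike, with 64.5, 50.0 and 34.7 at the promoter against 10.9, 7.96 and 5.88 in the body and 24.4, 17.5 and 18.2 in the TES region (1.31 ± 0.28, adjusted p = 7.8e-04). The pair that was lower at the promoter, Hnrnpk (-1.09 ± 0.08, adjusted p = 0.0051, or 0.090 and 0.077 without libraries 1 and 2) and Hnrnpl (-1.54 ± 0.13), has a second annotated start inside the gene and turned higher under TMM over all 9 columns.

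Ribosomal protein genes had dense bodies (median percentile 97.5 over 77 genes, none below the median of all) and, at 85.3, somewhat lower promoters. At the promoter 57 (74.0%) were higher than in the body and 7 (9.09%) lower, and their median log2 ratio of 1.75 was below that of all genes, 2.76. Rplp1, of the ribosomal stalk, had 82.0, 52.3 and 23.8 at the promoter and 15.7, 9.12 and 6.24 in the body (2.28 ± 0.31, adjusted p = 4.1e-07), and Rpl27a 68.2, 59.8 and 21.7 at the promoter against 17.1, 6.80 and 5.04 in the body. Rpl3 (-2.44 ± 0.37), Rps2 (-2.39 ± 0.35), Rpl35 (-1.70 ± 0.11) and Rps10 (-1.66 ± 1.15, adjusted p = 0.0011, or 0.076 without library 1) were lower. Under TMM over all 9 columns all 4 ratios turned positive, those of Rpl3 and Rps2 without a call (adjusted p = 0.94 and 0.25). Rpl3, Rps2 and Rps10 have a second start inside. Processed copies of these genes elsewhere in the genome can share reads. The mitochondrial ribosomal protein genes lay far lower, at 63.2 and 74.1, with 67 of 72 (93.1%) higher at the promoter.

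The rapidly induced immediate early genes stood at 94.3 for promoters and 93.5 for bodies, with 29 of 31 (93.5%, beside 89.1% of all) higher at the promoter and 1, Egr1, lower, which has a second start inside, was not called without library 1 or 3 and was higher under TMM over all 9 columns. Fos had 63.2, 40.2 and 31.7 CPM per kb at the promoter and 4.46, 11.3 and 7.70 in the body (2.56 ± 1.10, adjusted p = 7.6e-07), with the promoter lowest in library 3 and the body lowest in library 1. Ier2 behaved alike, with 72.3, 42.2 and 40.2 at the promoter against 12.6, 16.2 and 17.3 in the body. Jun was lowest in library 3 in both windows, with 74.7, 43.9 and 24.0 at the promoter against 19.2, 14.1 and 6.98 in the body. Arc, a synaptic gene, had 44.7, 31.2 and 26.6 at the promoter against 3.47, 4.23 and 3.96 in the body (3.11 ± 0.51, adjusted p = 4.3e-09). Behind the genes 14 of 31 (45.2%, beside 9.3% of all) were lower than in the body, Fos among them (-1.23 ± 0.63, adjusted p = 0.0028, or 0.12 without library 2, positive under that scaling). Fosl1 was at the other end, with 1.70, 0.924 and 2.34 at the promoter, 4.64, 2.12 and 2.44 in the body and 23.1, 17.1 and 9.54 in a TES window that lies over Ccdc85b.

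Of the 12 Pol II subunit genes 11 (91.7%) were higher at the promoter and none lower, with median percentiles of 69.7 and 82.6. Polr2a was the highest by far at the promoter, and Polr2b, the second largest subunit, had 48.1, 36.5 and 15.0 at the promoter against 1.62, 1.67 and 1.31 in the body. Polr2f was not called (-0.34 ± 0.32), and under TMM over all 9 columns it was higher. Behind the gene Polr2a was lower than in the body (3.28, 1.64 and 2.00, -0.80 ± 0.37, adjusted p = 0.038, or 0.18 and 0.35 without libraries 1 and 2) and Polr2i was lower too (-2.52 ± 0.47), both higher under that scaling.

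Developmental regulators were mixed. SOX genes had a median promoter percentile of 76.4 and body percentile of 95.3, with 12 of 15 higher at the promoter, and Sox4 and Sox11, genes of immature neural cells, were beside Sox2 and Sox9 at the top. Sox4 had 77.0, 52.7 and 20.0 at the promoter against 24.1, 17.2 and 4.40 in the body, and Sox11 60.1, 57.5 and 24.4 at the promoter against 6.04, 6.54 and 3.02 in the body. Forkhead genes were at 57.6 and 40.3. Zinc finger genes of the Zfp series, the largest family with 319 members, were close to all genes at 48.9 and 54.0, and 303 were higher at the promoter (95.0% beside 89.1% of all). Cell cycle genes were at 47.2 and 64.9, with 26 of 29 (89.7%) higher. Mki67, the proliferation marker, had 8.16, 21.9 and 14.3 at the promoter against 1.13, 2.47 and 1.97 in the body, lowest in library 1 in both windows. Ccnd1, a cyclin gene of the early cell cycle, was highest in library 1, with 24.8, 6.13 and 11.6 at the promoter against 17.0, 4.91 and 6.09 in the body.

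Low families were those of mature neurons and of matrix. Potassium channel genes had median percentiles of 13.3 and 17.9, with 36 of 42 promoters below the median of all genes, and collagen genes 16.2 and 8.07, with all 14 promoters below. At the promoter 35 of the 42 (83.3%) and 12 of the 14 (85.7%) were higher than in the body, below the 89.1% of all genes. The clustered protocadherin genes, cell surface proteins that differ between neurons, combined a low promoter percentile (10.5) with a higher body one (76.9), and 9 of 12, beside 18.8% of all, were higher at the TES than in the body. Their variable exons share the last exons of the cluster, so that windows of several members cover the same bases and the counts are not independent.

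Other families were less extreme. Promoter and body medians were at the percentiles 59.7 and 67.2 for translation factor genes, 62.3 and 62.9 for chaperonin and heat shock genes, 66.6 and 68.1 for proteasome subunit genes, 62.2 and 76.4 for NADH dehydrogenase genes, 52.0 and 88.4 for ATP synthase and cytochrome oxidase genes, 74.7 and 89.3 for tubulin genes and 51.4 and 36.2 for kinesin genes. In the same order 60 of 66 (90.9%), 58 of 67 (86.6%), 40 of 43 (93.0%), 30 of 36 (83.3%), 20 of 28 (71.4%), 10 of 13 (76.9%) and 34 of 35 (97.1%) were higher at the promoter than in the body, where all genes have 89.1%. The numbered Gm models, the satellite-like ones described below included, stood at 37.8 and 55.2, with 148 of 211 (70.1%) higher and 14 lower. Of the 10 tested satellite-like ones 2 were higher and 5 lower. The Rik models, at 43.2 and 49.8, were higher in 185 of 219 (84.5%) and lower in 7. Few members were measured of families used mainly in other tissues or positions, namely 1 Hox gene, 2 olfactory receptor genes and 2 keratin genes, beside 1 small nucleolar RNA host gene.

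Dense promoters differed in sequence from poor ones. The 12023 promoter windows were put in 10 groups of rising density. From the lowest to the highest group the share with a CpG ratio (observed over expected) above 0.6, a usual mark of CpG islands, rose from 27.4% to 97.8%, with 71.1% over all, and it rose at every step. The median of G and C bases went from 54.0% to 64.6%. GC boxes, as in the Polr2a and Jund sequences above, were in 48.9% and 85.5% of windows (72.0% of all), the ETS motif in 5.40% and 29.0% (21.1%), and the CRE motif in 2.00% and 5.99% (3.89%). CCAAT was in 45.8% and 44.2% and most frequent in between. TATAAA at its usual place was rare, and its share was 1.50% in the lowest group, 0.166% in the fifth and 1.91% in the highest. GC boxes and the CpG ratio overlap, since a GC box holds a CpG. Gene bodies rose less, from a median of 0.837 to 1.92 CPM per kb, and grouping by 1 library at a time gave the CpG share from 23.6% to 33.9% in the lowest and 96.7% to 97.9% in the highest group.

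**Figure D4:**
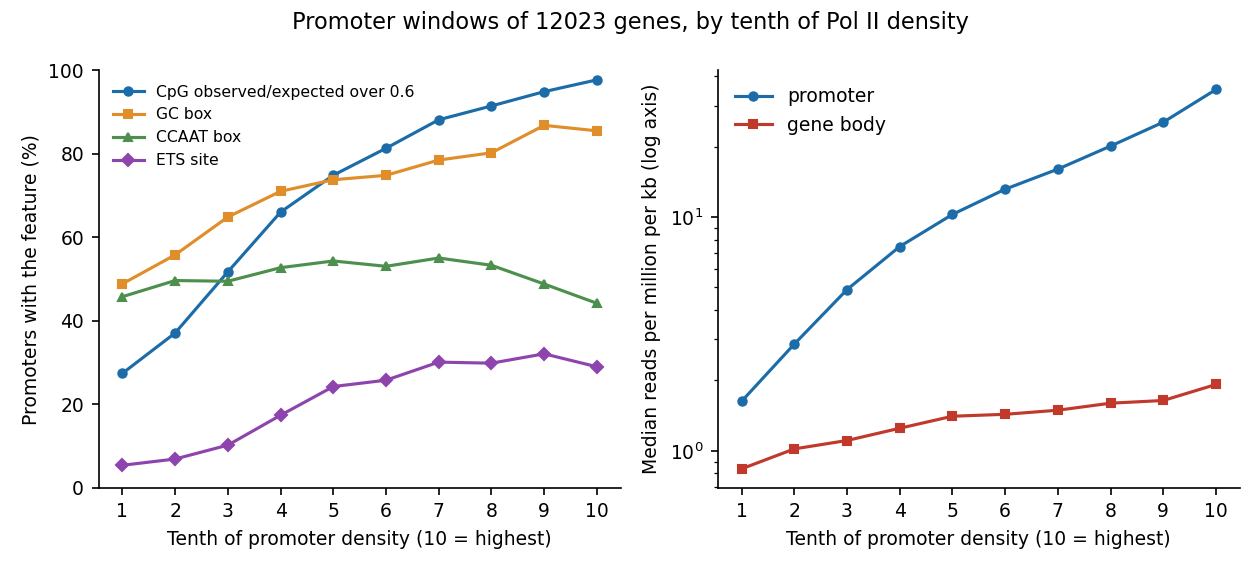
Promoter windows of 12023 genes in 10 groups of rising density (mean of 3 WT libraries). Left, share of windows (percent) with a CpG ratio above 0.6, a GC box, a CCAAT box and an ETS motif, of which the CpG share climbs from 27.4% to 97.8%. Right, median promoter and gene body density (CPM per kb, log axis), where the body line climbs far less than the promoter line that defines the groups.

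The gene lists differed in the same features. TATAAA was at its place in 16.1% of the 31 immediate early promoters and in 3 of the 12 neuronal ones, against 0.724% of all, and 90.3% of the former held a GC box. CCAAT was in 92.9% of the stem cell, 88.9% of the dorsal, 87.5% of the histone and 79.3% of the splicing factor promoters, against 50.7% of all. Of the 77 ribosomal protein promoters 35.1% held the ETS motif and none TATAAA. The genes lower at the promoter than in the body had a CpG ratio above 0.6 in 15.8% and a GC box in 30.3%. Both were below the 27.4% and 48.9% of the group of lowest promoter density. A match says only that these letters are in the window.

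Of 13 satellite-like gene models listed, 11 were measured, and these took 2.14, 3.44 and 6.22% of all reads in libraries 1, 2 and 3. Satellite DNA consists of short units repeated in tandem, in the mouse mainly next to the centromeres, and reads from its many copies cannot be placed uniquely. A shift of 234 bases, the unit length of mouse major satellite, gave the best match of a model to itself in 9 of the 11. To show this, a repeat unit of Gm10718 is printed with the most similar stretch found in 3 other models (GRCm38). For Gm10722 and Gm10800 rotated starts of the unit were tried as well, and their lines begin at other points of it. For Gm21738 only the printed start was tried. Capitals mark, in Gm10718, the bases that differ from its next repeat. In the others they mark those that differ from the Gm10718 unit, rotated for Gm10722 and Gm10800.
Gm10718: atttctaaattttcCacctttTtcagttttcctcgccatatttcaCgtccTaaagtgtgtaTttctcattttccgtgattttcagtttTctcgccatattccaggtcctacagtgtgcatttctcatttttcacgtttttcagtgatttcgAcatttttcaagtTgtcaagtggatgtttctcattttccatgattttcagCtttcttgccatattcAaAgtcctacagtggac
Gm10722: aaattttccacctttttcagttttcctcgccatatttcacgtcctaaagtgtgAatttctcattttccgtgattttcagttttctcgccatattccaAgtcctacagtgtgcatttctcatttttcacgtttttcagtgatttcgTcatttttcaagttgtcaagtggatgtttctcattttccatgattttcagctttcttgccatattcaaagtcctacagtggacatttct
Gm10800: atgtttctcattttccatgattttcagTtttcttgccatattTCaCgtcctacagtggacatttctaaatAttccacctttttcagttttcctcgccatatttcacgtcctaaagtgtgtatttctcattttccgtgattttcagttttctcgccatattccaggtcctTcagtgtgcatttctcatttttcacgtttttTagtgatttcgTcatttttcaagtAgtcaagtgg
Gm21738: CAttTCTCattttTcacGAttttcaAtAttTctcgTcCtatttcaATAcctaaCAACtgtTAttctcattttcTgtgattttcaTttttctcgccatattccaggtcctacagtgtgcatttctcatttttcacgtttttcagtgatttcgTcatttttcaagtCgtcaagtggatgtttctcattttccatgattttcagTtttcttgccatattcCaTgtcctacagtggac
The units lie at chr9:3024074-3024307 (plus strand), chr9:3001659-3001892 (plus), chr2:98667068-98667301 (minus) and chr14:19417237-19417470 (minus). Against the Gm10718 unit, 3 bases differ in Gm10722, 9 in Gm10800 and 30 in Gm21738, on 3 chromosomes. In all 8 of the 11 models, Gm10718 and Gm10722 among them, lie within chr9:3000922-3038316.

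All of these models share sequence with Gm10718. Of the 12-base words of their promoter windows, from 12.7% to 91.8% (median 73.9%) also occur in Gm10718 on either strand, whereas the highest value of 12069 other genes was 1.02% (Cbwd1). Over the gene spans of the models other than Gm10718 itself the range was 24.8% to 86.4%, against 0.164% at most (Nap1l5). The lowest of the 11 was Gm10801 on chromosome 2, beside Gm10800 and without a 234-base period. By this measure none of the other 12069 genes with a position was satellite-like, and the 27 without one were not checked. GC content over the gene spans of the models was from 34.3% to 36.3%. This is below the medians of all promoter groups above, which were taken over promoter windows and not over gene spans.

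Gm10800, a model of only 755 bases and so outside the tests, held most of these reads. Its body window had 214979, 418865 and 496444 reads in libraries 1, 2 and 3 and its promoter 35192, 224397 and 179278, which is 1.71, 8.43 and 20.4% of all promoter reads. Library 3, the smallest library, had the largest share. CPM was taken over all 3 windows, so the models lower the CPM of other genes by their share of all reads, 6.22% at most. Without the satellite-like models the promoter share of reads was 10.9, 10.6 and 5.01%, and library 3 was still lowest. Gm10801 had 574, 244 and 614 CPM per kb at the promoter, 604, 763 and 1153 in the body and 438, 691 and 1321 at the TES, and was not called different between promoter and body (-0.88 ± 0.79).

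The chromosome 9 models varied between libraries, and not in the same direction. Gm10718 had 10887, 433 and 28423 body reads, so that library 2 was lowest by far. Gm10722, with 11812, 12020 and 328, and Gm11168, with 8223, 4630 and 148, were lowest in library 3, and Gm10722 nevertheless had 4771, 4843 and 3964 reads in its promoter window. Its promoter was called higher than its body (1.60 ± 2.83, adjusted p = 0.038) on library 3 alone, for without that library the log2 ratio was -0.04. Of the 10 tested models 2 were higher at the promoter than in the body and 5 lower, beside 89.1% and 1.37% of all genes. At the TES 6 were lower than in the body, beside 9.3% of all. The lowest promoter to body ratio was that of Gm17535, with 0.848, 2.27 and 3.30 at the promoter against 21.3, 29.6 and 58.5 in the body (-4.12 ± 0.44, adjusted p = 5.3e-10). Several of these ratios, those of Gm10715, Gm21738, Gm11168, Gm10801 and Gm10718, turned positive under TMM over all 9 columns, and the promoter calls of Gm21738 and Gm11168 were lost without library 1 (adjusted p = 0.068 and 0.44). How reads were divided among copies of the repeat was not tested, so a value of 1 model cannot be told apart from those of its copies.

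**Figure D5:**
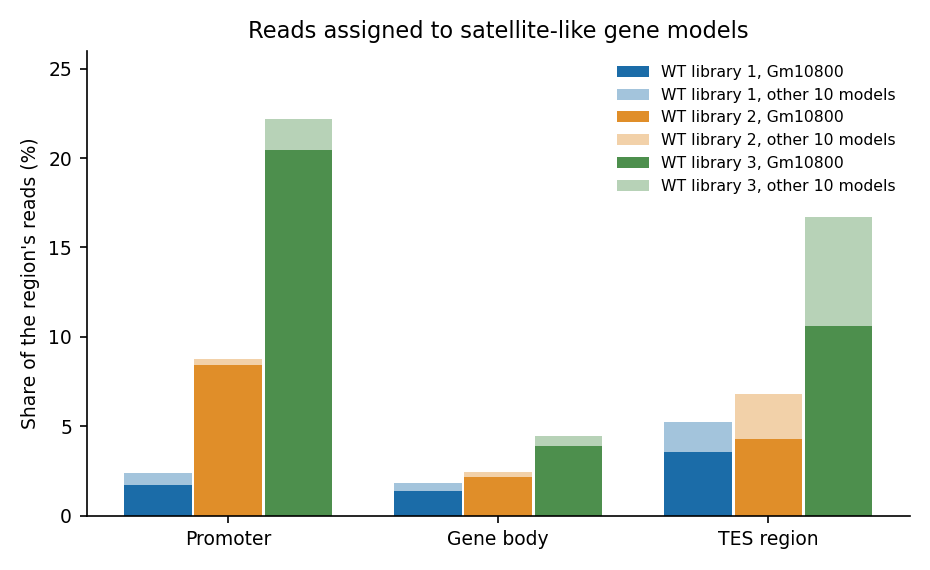
Share of promoter, gene body and TES reads (percent) that fell on 11 satellite-like gene models in each WT library, dark for Gm10800 and pale for the other 10. The share is largest in library 3 in every window (22.2% of promoter reads) and smallest in library 1.

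Library 3 was the lowest at nearly all promoters that differed between libraries. Of 6761 promoters with at least 5 CPM on average, 5650 (83.6%) had a highest library over 2 times the lowest, and library 3 was the lowest in 5590 of these. The median promoter density over all genes was itself 2.29 times lower in library 3 than in library 1 and the part of this shift in the count was not tested. Of 8791 bodies with at least 20 CPM, 1604 (18.2%) had such a ratio, the highest library being 1, 2 and 3 in 617, 228 and 759. With the lower limit on CPM differing between the windows, these shares are not compared. Beyond 4-fold were 452 promoters and 41 bodies, 29 of these bodies highest in library 1. With a single library per replicate number no group is there to test, and culture, immunoprecipitation and sequencing cannot be told apart.

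The 10 bodies with the largest ratios were those of Uty and Kdm5d on the Y chromosome, Cwc22, Sox9, Fabp7, Hes5, Sox2, Olig1, Myc and Rasl11a. Sox9 had 74.8, 39.0 and 9.22 CPM, Fabp7 123, 38.3 and 17.5, Hes5 39.8, 40.1 and 6.61, Sox2 40.3, 23.8 and 6.68 and Olig1 98.2, 16.0 and 22.0, each lowest in library 2 or 3 and highest in library 1 or 2. The growth regulator Myc had 116, 22.2 and 19.8 and Rasl11a, a small GTPase gene, 55.0, 14.8 and 9.50. Over the 14 stem cell markers the median body density was 10.3, 7.61 and 3.83 CPM per kb in the 3 libraries, while over all genes the 95th percentile of body density was 6.69, 5.69 and 3.38, so that dense bodies as a whole were lower in library 3. The part of this in the single genes was not tested. Cwc22, a splicing factor gene, was a case apart, with 835, 70.4 and 497 CPM in the body and 21.7, 0.924 and 7.09 at the promoter, lowest in library 2 in both. With it the homeobox genes Irx1 (11.9, 4.54 and 0.344 CPM) and Irx2 (12.2, 3.99 and 0.619), lowest in library 3, had the 3 largest ratios among promoters of at least 5 CPM with reads in every library.

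The sex chromosomes also set library 3 apart. The 4 Y chromosome genes in the table, with Uty at 114, 96.3 and 0.206 and Kdm5d at 44.0, 42.5 and 0.275 CPM in the body, had 4416, 4679 and 9 reads in all windows. Median body density on the X chromosome (368 genes) was 0.563, 0.567 and 0.857 times that of the autosomes and median promoter density 0.544, 0.549 and 0.609 times. Libraries 1 and 2 thus held Y-linked reads and low X body density, and library 3 nearly none and a higher one. The labels give no sex for the fetuses, and the part of sex in the other differences among the libraries was not tested.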

How the data were processed

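RPB1 ChIP-seq reads of 3 WT libraries of NPCs were used, and the 3 KO columns of the same tables were not. The submitters' processing notes list BWA, Trimmomatic, bcl2fastq 2.20, HOMER, Picard, MACS2, limma and edgeR. The authors deposited raw read counts per gene and window, made with HOMER, after removing genes without signal in KO cells, and log2 CPM made from those counts with TMM and voom, which served here as an alternative only. Their gene annotation and handling of multiply placed reads were not given in these sources. Positions came from GENCODE vM21 on GRCm38 (12041 genes by name, 39 through older symbols, 27 without 1 position), and the TSS was taken as the outermost annotated start of a gene.

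Counts were tested with edgeR 4.0.16 (R 4.3.3, quasi-likelihood, two-sided) over 9 columns, with library as replicate block, window as effect and log(library total x window length) as offset, for 12023 genes of at least 1000 bases and 30 reads on average, with Benjamini-Hochberg adjustment over all genes and the 3 comparisons and calls made below an adjusted p of 0.05. Library totals were 18863084, 23808344 and 14528870. Log2 ratios are per library with 0.5 added to each count. The script was tested on simulated data. Other tools were limma 3.58.1 and DESeq2 1.42.0. Named genes were the 10 highest per window by CPM and by CPM per kb, the 10 highest and lowest promoter to body and 5 highest and lowest TES to body ratios among called genes with 1 sign and at least 5 CPM, the 10 largest library ratios per window, and the highest 6 and lowest 3 of each list, of which a part is printed. Egfr, Slc1a3, Map2, Fos, Arc and other list members outside these limits were named after their values were seen. The comparisons, genes and lists were chosen with earlier results of these data known. Lists of genes of other tissues, small RNA, microRNA and Pol III genes had no measured member. Some genes are not reported here.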

Additional observations from a re-analysis of the deposited data

How the results depend on the processing

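Of 103 alternative values of 13 counts, 76 stayed within 1.5 times, and of 1716 of single genes 1568 kept direction and side of the threshold, 88 lost and 23 gained it. Promoters exceeded bodies at most genes under each alternative. TMM over all 9 columns sets the usual read numbers of windows of unequal length equal by construction, which moved the median log2 ratio from 2.80 to 5.55 for promoter to body, from 0.19 to 3.43 for TES to body and from 2.56 to 2.07 for promoter to TES. It left 2 genes lower at the promoter than in the body, gave 11954 higher and 16 lower at the TES than in the body, and 533 promoters below the TES, and reversed the log2 promoter to body ratio of Chl1 0.23, Gm10715 0.17, Gapdh 1.05, Pax6 1.64, Id3 0.50, Dcx 2.76, Hnrnpk 1.56, Hnrnpl 1.12, Rpl3 0.04, Rps2 0.30, Rpl35 0.91, Rps10 1.03, Hist2h3c1 0.03, Tmsb10 0.50, Rpl41 0.35, Atf4 2.42, Egr1 1.70, Ubb 2.58, Fosl1 1.74, Mcm7 2.24, Sox10 2.22, Polr2f 2.38, Emx1 2.66, Gm21738 1.67, Gm11168 1.09, Gm10801 1.99 and Gm10718 2.02 and the TES to body ratio of Polr2a 2.41, Polr2i 0.63, Actb 2.72, Gapdh 2.97, Jund 1.63, Olig2 3.05, Fos 1.93, Id3 2.13 and Olig1 2.23. The sign compared was that of edgeR's estimate, which at Dcx differs from the sign of the mean of the libraries. Against a 2-fold difference 54 promoters were lower than the body, 668 TES regions higher and 338 lower, and 102 promoters below the TES. limma called 4009 TES regions higher and 1808 lower, and TMM within each window 3567 higher. The cause was not tested. Without the replicate block, which the library forms, 1551 TES regions were higher and 732 lower, and 10411 promoters higher and 110 lower than the body. The 6953 genes with 1 start and no neighbour were chosen after the data were seen. They gave 6340 and 57, 1355 and 575, and 6177 and 105 genes higher and lower in the 3 comparisons. With 6953 genes tested in place of 12023, these counts cannot be set directly beside the main ones. The promoter to body ratio of Gm10722 was from -0.04 to 2.95 without 1 library and turned without library 3. Leaving out 1 library gave 9759 to 10914 and 80 to 195 for promoter to body, 903 to 3715 and 563 to 1646 for TES to body, and 9305 to 10674 and 133 to 298 for promoter to TES. Scaled to gene body reads, 796 promoters differed over 4-fold between libraries. Of the 100 genes of highest CPM per window, 84 to 100 were shared with each alternative. With 14528870 to 23808344 reads, bodies near the even density and TES windows with few reads limit what can be told from background.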
